A study of Mus musculus with 2 samples.

Results

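The nuclear lamina and the LINC complex (linker of nucleoskeleton and cytoskeleton) were described through 10 genes, chosen by name as lamins, inner nuclear membrane proteins, SUN proteins and nesprins, among 20373 rows listed by symbol. All 10 (Lmna, Lmnb1, Lmnb2, Lbr, Tmpo, Emd, Sun1, Sun2, Syne1 and Syne2) were found in both expression tables, each on a single row. RNA had been sequenced from neurons and from neural progenitor cells (NPCs) of the mouse cortex at embryonic day 15.5, with 1 library of each. Both came from embryos carrying Nestin-GFP, from a heterozygous parent, and DCX-mRFP, from a homozygous parent, so neurons and NPCs shared both reporters. The reporters follow regulatory sequences of Nestin and of doublecortin, and the labels do not say how many embryos were pooled. Cells with both colours were collected as neurons and green cells as NPCs by fluorescence-activated sorting. The column headings inside the tables call the neuron library R.ctx and the NPC library D.ctx, letters that the labels do not explain.

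The lamina is a meshwork of intermediate filament proteins under the inner nuclear membrane. B-type lamins (Lmnb1, Lmnb2) stay attached to the membrane and are needed for cortical neurons to migrate in mice, whereas A-type lamins (Lmna) are known to be scarce in brain cells and abundant in mesenchymal ones. Lbr, Tmpo and Emd encode inner membrane proteins that hold chromatin at the lamina. SUN proteins reach across the perinuclear space and grip the KASH tails of nesprins (Syne1, Syne2). The nesprins bind dynein, kinesin and actin, and so pull the nucleus, both in the up-and-down nuclear movement of dividing radial glia and in migrating neurons.

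Levels are given in CPM, counts per 1000000 on a scale common to both libraries that keeps the ratio between them as deposited. The neuron library held 23312054 recovered reads on listed genes and the NPC library 26346226. A difference was counted from 2-fold upward on the scale log2((neuron CPM + 1)/(NPC CPM + 1)), among the 12693 genes that reached 1 CPM in either library. With 1 library per group there is no replicate check and no p-value. The 95% intervals (Clopper-Pearson, on the share of a gene's reads that came from the neuron library) cover counting error only, since PCR copies of a molecule could not be told from separate molecules. Fewer cells of a type and less RNA per cell cannot be told apart in such bulk libraries.

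The lamina and LINC genes differed by less than 2-fold between the neuron and NPC libraries, with the exception of Lbr. Lbr was at least 2-fold lower in neurons, which makes 1 of the 10 members. Among all genes tested, 6.73% were at least 2-fold lower in neurons. None of the members was at least 2-fold higher in neurons, against 3.85% of all genes tested. Tmpo, Syne2 and Lmnb1 were lower in neurons by less than 2-fold with intervals that exclude equal levels. Sun2, Lmnb2 and Sun1 were slightly higher in neurons with intervals that also exclude equal levels. The intervals of Lmna, Emd and Syne1 included equal levels. With scaling by total reads, the interval of Sun1 included equal levels (101% of the NPC level, 95.9 to 107) and that of Emd did not (91.0%, 84.5 to 97.99). Scaling by upper quartiles moved the same 2 genes in the same way, to 97.9 to 109 for Sun1 and 86.2 to 99.98 for Emd. The median log2 ratio of the 10 members was −0.15, and that of all genes tested was −0.0049. All 10 members passed the 1 CPM minimum. Summed over the members, the level was 1709 CPM in neurons and 2285 CPM in NPCs.

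**Figure D1:**
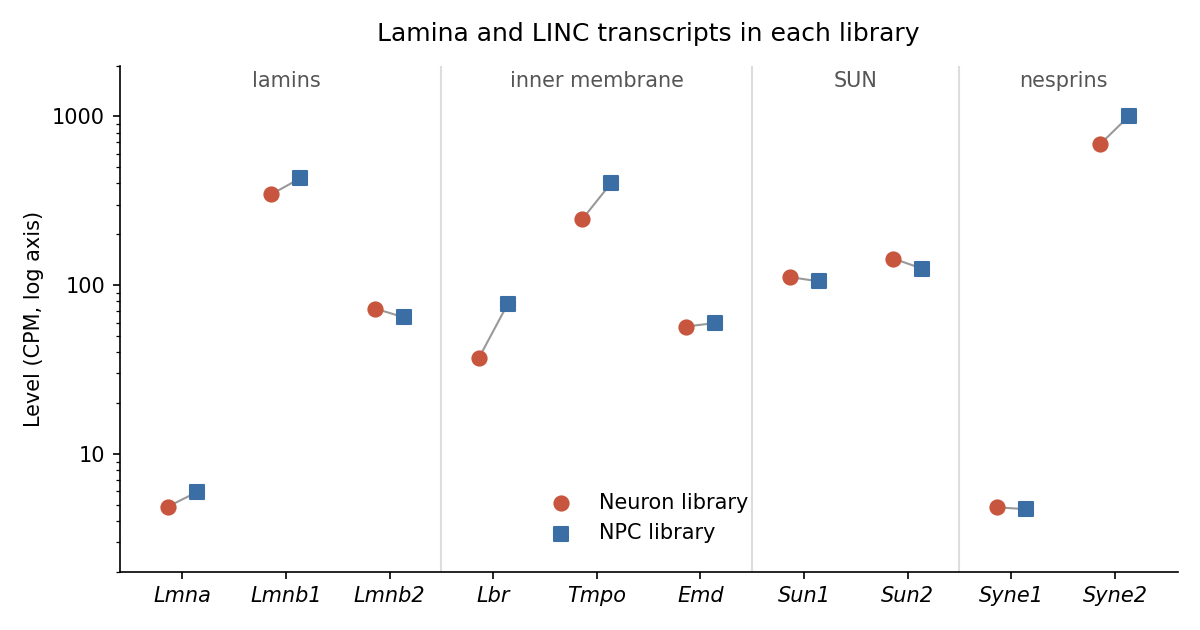
Level of each lamina and LINC gene in CPM (log axis) in the neuron library (circles) and the NPC library (squares), 1 library each, with a line joining the 2 values of a gene. Lmna and Syne1 lie between 4.71 and 5.93 CPM, and the steepest lines are those of Lbr (36.8 CPM in neurons, 77.2 CPM in NPCs) and Tmpo (246 and 403 CPM).

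The lamins were dominated by a B-type gene in both libraries. Lmnb1, the main B-type lamin, had 7868 reads in neurons and 11594 in NPCs, or 345 CPM in neurons and 429.8 CPM in NPCs. Its level in neurons was 80.3% of that in NPCs (interval 78.1 to 82.7), and its log2 ratio was −0.31. Lower log2 ratios were found for 22.2% of all genes tested, so a difference of this size is common in the comparison. Lmnb2, the second B-type lamin, had 72.6 CPM in neurons and 64.4 CPM in NPCs. It lay on the other side of equality, at 113% of the NPC level (105 to 121). The neuron-to-NPC ratio of Lmnb1 was 0.713 times that of Lmnb2 (95% Wald interval 0.662 to 0.767), a comparison that does not depend on the scaling between libraries.

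Lmna, the gene of lamins A and C, had 111 reads in neurons and 160 in NPCs, or 4.87 CPM in neurons and 5.93 CPM in NPCs. The level in neurons was 82.1% of that in NPCs (63.9 to 105), so no difference was detectable at this depth. Levels of different genes are compared per kilobase of the annotated transcript with the longest coding sequence. On that scale Lmnb1 stood at 121 CPM per kilobase in neurons and 151 in NPCs. Lmnb2 stood at 20.6 in neurons and 18.2 in NPCs, and Lmna at 1.54 in neurons and 1.88 in NPCs. Per kilobase, Lmnb1 was therefore 78.7 times as abundant as Lmna in neurons and 80.4 times in NPCs. Of the summed lamin level per kilobase, Lmna made up 1.08% in neurons and 1.097% in NPCs. Lmnb2 made up 14.3% in neurons and 10.7% in NPCs, and Lmnb1 the remaining 84.6% in neurons and 88.3% in NPCs. The shift in composition between the libraries was thus one between the B-type lamins, while the A-type share stayed near 1% in each.

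**Figure D2:**
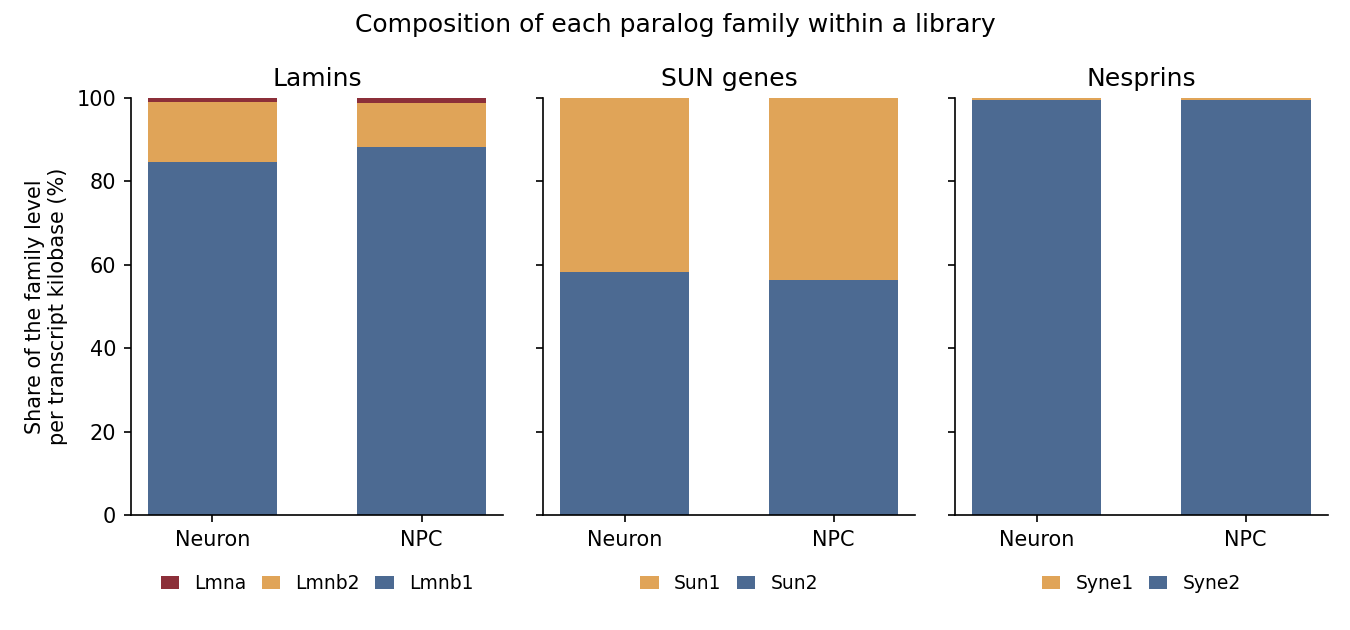
Share of each paralog in the summed level of its family per transcript kilobase (bars, percent, adding to 100), in the neuron library on the left and the NPC library on the right of each panel. Lmnb2 takes 14.3% of the lamin level in neurons and 10.7% in NPCs, Sun2 takes 58.3% of the SUN level in neurons and 56.4% in NPCs, and Syne1 takes under 1% of the nesprin level in both libraries.

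Lmna is strongly expressed by vessel wall and connective tissue cells, and markers of such cells were higher in the NPC library. Of 8 pericyte and smooth muscle markers, 6 were at least 2-fold lower in neurons, with a summed level of 13.3 CPM in neurons and 205 CPM in NPCs. Acta2 and Tagln, smooth muscle genes, were the 2 within 2-fold. The platelet-derived growth factor receptor gene Pdgfrb had 2.33 CPM in neurons and 54.02 CPM in NPCs. Endothelial markers summed to 3.12 CPM in neurons and 20.4 CPM in NPCs. Those of meningeal fibroblasts summed to 1.98 CPM in neurons and 25.7 CPM in NPCs, with Col3a1, a fibrillar collagen gene, at 0.790 and 16.9 CPM. Of the 8 fibroblast markers, 4 passed the 1 CPM minimum, all lower in neurons, and 3 had at most 3 reads in both libraries. Among these 3, Aldh1a2 was at 0 reads in neurons and Foxc2 at 0 reads in NPCs. The part of these cells in the Lmna level was not tested.

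Lbr was the member farthest from equality. It encodes the lamin B receptor, which anchors heterochromatin to the lamina through its amino-terminal region and is also a sterol C14 reductase of cholesterol synthesis. It had 838 reads in neurons and 2081 in NPCs, or 36.8 CPM in neurons and 77.2 CPM in NPCs. The level was 2.10-fold lower in neurons (1.93 to 2.28), with a log2 ratio of −1.05. A lower log2 ratio was found for 6.22% of all genes tested. The call lies close to the threshold, and with 5 CPM added in place of 1 the log2 ratio was −0.98, short of 2-fold. Of the annotated exon bases of Lbr, 9.24% also belong to Dnah14 on the opposite strand. Since strand use in the counting is not stated, reads there cannot be assigned to either gene.

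Tmpo encodes the lamina-associated polypeptides LAP2, membrane-bound forms that tie the lamina to chromatin and a nucleoplasmic form that binds A-type lamins. It had 5598 reads in neurons and 10878 in NPCs, or 246 CPM in neurons and 403 CPM in NPCs. The level was 1.64-fold lower in neurons (1.59 to 1.70). A lower log2 ratio was found for 10.5% of all genes tested. The gene-level values do not separate the LAP2 forms, nor lamin A from lamin C. Emd encodes emerin, which like LAP2 carries a LEM domain that binds the chromatin protein encoded by Banf1. It had 56.8 CPM in neurons and 59.6 CPM in NPCs, and the level in neurons was 95.3% of that in NPCs (88.6 to 103). The processed pseudogene Gm14686 shares 13.6% of the annotated exon bases of Emd on the same strand, so part of this value is uncertain. The 2 LEM genes thus differed in their behaviour. The neuron-to-NPC ratio of Emd was 1.56 times that of Tmpo (Wald interval 1.44 to 1.70). Per transcript kilobase, Tmpo was 1.83 times as abundant as Emd in neurons and 2.86 times in NPCs. Per kilobase of coding length the values were 1.62 and 2.53. Both scales assume 1 transcript per gene, while 5 coding transcripts of Tmpo are annotated.

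The 4 members whose intervals lay below equal levels were set beside genes of dividing and progenitor cells. Because these members were picked for being lower in neurons, the direction they share with those genes carries no information. Lmna and Emd, also lower in value, are left out because their intervals included equal levels. All 8 mitosis markers were at least 2-fold lower in neurons, and the median marker stood at 33.6% of its NPC level, within a range of 29.1% to 39.8%. The proliferation antigen gene Mki67 had 241 CPM in neurons and 829 CPM in NPCs. All 8 radial glia markers were also at least 2-fold lower in neurons, with a median of 33.2% of the NPC level and a range of 16.7% to 46.4%. The upper end of that range was Nes (44.8 to 48.1). Lbr stood at 47.7% of its NPC level (44.0 to 51.7), Tmpo at 60.9% (59.0 to 62.9), Syne2 at 68.0% (66.6 to 69.3) and Lmnb1 at 80.3%. Each of these 4 intervals lies above the range of the mitosis markers' values. Those of Tmpo, Syne2 and Lmnb1 also lie above the range of the radial glia markers' values. The interval of Lbr overlaps that of Nes and those of the mitosis markers Plk1 (34.9 to 45.3) and Cdk1 (35.1 to 44.7). The part of dividing and progenitor cells in the lower levels of the lamina genes was not tested.

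Windows around the start sites of Lbr and Tmpo are shown because these are the members with the lowest ratios, and that of Sun2 because it has the highest. RefSeq windows run from 250 bases before the start to 50 after it (GRCm38.p6, 300 bases, written along the gene's strand). Of the 10 members, 9 were searched, with 15 windows in all. Windows of 1 chromosome were left out beforehand, and no window of Lmnb1 was searched, so the motif counts do not cover it. Capitals mark the searched motifs on either strand. These were TTTGAA, the core of the cell cycle homology region found in promoters of genes of mitosis, CCAAT, the box bound by NF-Y, and TTCCCGC and TTGGCGC, forms of the E2F site.
Lbr, chr1:181842352-181842651, minus strand: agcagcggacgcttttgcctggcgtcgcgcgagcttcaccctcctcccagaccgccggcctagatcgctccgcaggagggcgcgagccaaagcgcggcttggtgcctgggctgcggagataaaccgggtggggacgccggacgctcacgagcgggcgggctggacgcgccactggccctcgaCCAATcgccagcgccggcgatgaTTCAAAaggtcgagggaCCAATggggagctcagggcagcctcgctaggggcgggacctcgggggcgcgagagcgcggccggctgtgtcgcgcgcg
Tmpo, first window, chr10:91171570-91171869, minus strand: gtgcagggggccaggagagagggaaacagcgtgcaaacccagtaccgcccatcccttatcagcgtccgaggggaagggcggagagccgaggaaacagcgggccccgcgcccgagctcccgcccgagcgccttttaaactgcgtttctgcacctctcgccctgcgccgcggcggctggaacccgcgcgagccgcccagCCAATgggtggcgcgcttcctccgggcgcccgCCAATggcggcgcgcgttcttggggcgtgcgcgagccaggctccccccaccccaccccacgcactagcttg
Tmpo, second window, chr10:91170501-91170800, minus strand: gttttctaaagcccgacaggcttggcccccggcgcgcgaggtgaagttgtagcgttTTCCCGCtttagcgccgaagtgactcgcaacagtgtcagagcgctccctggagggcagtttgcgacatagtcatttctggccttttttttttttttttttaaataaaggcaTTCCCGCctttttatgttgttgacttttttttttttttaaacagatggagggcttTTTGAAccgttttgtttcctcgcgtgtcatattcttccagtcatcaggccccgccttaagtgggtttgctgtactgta
Sun2, chr15:79742487-79742786, minus strand: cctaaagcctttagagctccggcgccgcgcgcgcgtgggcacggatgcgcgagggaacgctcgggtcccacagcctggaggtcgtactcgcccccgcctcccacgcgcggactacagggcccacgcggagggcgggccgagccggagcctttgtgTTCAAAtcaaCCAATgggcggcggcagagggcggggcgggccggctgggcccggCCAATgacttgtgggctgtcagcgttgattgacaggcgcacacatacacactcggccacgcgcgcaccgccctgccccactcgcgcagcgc
The window of Lbr holds TTTGAA once, as its reverse complement, flanked by CCAAT on each side, and none of the E2F forms. The first window of Tmpo, whose start lies 37 bases from a GENCODE start, holds CCAAT at 2 places. The second, whose start lies 88 bases from one, holds TTTGAA once and TTCCCGC at 2 places. Sun2, which was not lower in neurons, holds TTTGAA and CCAAT as well. Among all 32851 windows, 17.9% hold TTTGAA, 37.4% CCAAT, 4.60% TTCCCGC and 2.45% TTGGCGC. Of the 15 member windows, TTTGAA was in 3 and CCAAT in 7. TTCCCGC was in 1, and TTGGCGC in 2, those of Lmnb2 and Syne1. None of the searched motifs overlapped another in the printed windows. Matches were found at both ends of the order of ratios.

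The SUN genes, which form the inner part of the LINC complex, were present at similar levels in both libraries. Sun1 had 112 CPM in neurons and 105 CPM in NPCs, at 106% of the NPC level (100.5 to 112). Sun2 had 144 CPM in neurons and 125 CPM in NPCs, at 115% (109 to 120.4). The log2 ratio was 0.084 for Sun1, whose interval excluded equal levels only with the deposited and TMM scalings, and 0.197 for Sun2, whose interval excluded them under all 4 scalings. Higher log2 ratios were found for 39.6% and 28.4% of all genes tested. Per transcript kilobase, Sun2 was 1.40 times as abundant as Sun1 in neurons and 1.29 times in NPCs. The ratio of Sun1 was 0.924 times that of Sun2 (Wald interval 0.860 to 0.993). In mice either SUN gene can stand in for the other in moving nuclei, and both were measured here at more than 100 CPM in each library.

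**Figure D3:**
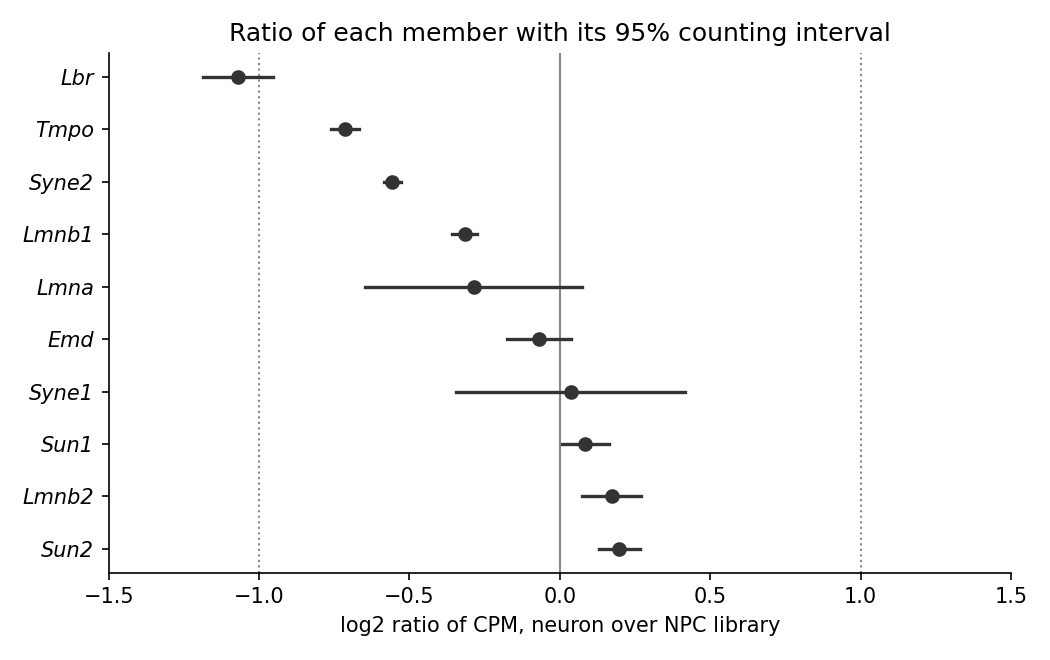
Log2 ratio of CPM, neuron over NPC library, without an added value (points), with the 95% counting interval (lines) for each member, ordered from lowest to highest. The solid line marks equal levels and the dotted lines 2-fold; Lbr lies near −1, Tmpo, Syne2 and Lmnb1 lie between −1 and 0 with narrow intervals, and Lmna and Syne1 have the widest intervals.

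The nesprins were represented almost wholly by Syne2, whose giant product reaches from the nuclear envelope to actin and the microtubule motors. Syne2 had 15632 reads in neurons and 27233 in NPCs, the highest read counts among the members. Its level was 686 CPM in neurons and 1009.6 CPM in NPCs, or rank 140 of all listed genes in neurons and rank 57 in NPCs. Syne2 was 1.47-fold lower in neurons (1.44 to 1.501). A lower log2 ratio was found for 13.9% of all genes tested. Read counts grow with transcript length, and the annotated Syne2 transcript is 21690 bases long. Per transcript kilobase Syne2 stood at 31.6 CPM in neurons and 46.5 in NPCs. Sun2 stood at 37.8 in neurons and 32.9 in NPCs, and Sun1 at 27.02 in neurons and 25.5 in NPCs. On this scale Syne2 lay between the SUN genes in neurons and above both in NPCs.

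Syne1, the gene of nesprin-1, was among the lowest members at 110 reads in neurons and 127 in NPCs, or 4.83 CPM in neurons and 4.71 CPM in NPCs. The level in neurons was 103% of that in NPCs (78.7 to 133), a difference not detectable at this depth. Its sign turned with the scaling, and the log2 ratio was 0.030 as deposited and −0.025 with scaling by total reads. Syne1 made up 0.699% of the nesprin reads in neurons (0.575 to 0.842) and 0.464% in NPCs (0.387 to 0.552). Per transcript kilobase Syne2 was 183 times as abundant as Syne1 in neurons and 276 times in NPCs. The neuron-to-NPC ratio of Syne2 was 0.663 times that of Syne1 (Wald interval 0.513 to 0.856). Both nesprin genes make short forms besides the giant ones, which a value per gene does not separate, and per-kilobase values assume the long transcripts.

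In the order of the ratios, Lbr, Tmpo, Syne2 and Lmnb1 came lowest, followed by Lmna, Emd, Syne1, Sun1, Lmnb2 and Sun2. Of the 9 pairs of neighbours in this order, 3 differed beyond counting error. These were Lbr and Tmpo, Tmpo and Syne2, and Syne2 and Lmnb1. For the other 6 pairs, all from Lmnb1 upward, the 95% Wald interval of the ratio between neighbours included 1. Lmna and Lmnb1 had almost the same ratio, at 1.02 times (0.801 to 1.30), where the width comes from the few reads of Lmna.

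Other proteins of the nuclear envelope differed little between neurons and NPCs. Of 19 listed genes 18 were found, and 16 passed the 1 CPM minimum. In this list 0 were at least 2-fold apart in either direction, 7 were higher and 9 lower in neurons, and the median log2 ratio was −0.077. The gene farthest from equality was Tmem194, now called Nemp1, an inner membrane protein. It had 20.7 CPM in neurons and 34.8 CPM in NPCs, at 59.5% of the NPC level (53.1 to 66.5). Next came Tor1aip1, the gene of the lamina-associated protein LAP1 that activates the ATPase torsin A, at 39.5 CPM in neurons and 54.8 CPM in NPCs. Its relative Tor1aip2 had 95.7 CPM in neurons and 129 CPM in NPCs. Ankle2, a LEM-domain gene that acts in rebuilding the envelope after mitosis, had 79.9 CPM in neurons and 99.7 CPM in NPCs. The testis-type genes Sun3 and Sun5 had 0 reads in neurons and 2 and 1 reads in NPCs. The floor of 3 reads is 0.132 CPM in neurons and 0.111 CPM in NPCs.

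The genes listed for the maturation of lamins were all within 2-fold. Lamins are farnesylated, clipped and methylated at their carboxyl-terminal motif, and the 6 listed genes had a median log2 ratio of −0.012. Among them Narf, at 99.3% of its NPC level (94.8 to 104), is not an enzyme of these reactions. Zmpste24, the protease that cuts prelamin A, had 44.8 CPM in neurons and 52.6 CPM in NPCs, at 85.2% (78.5 to 92.4). Icmt, the methyltransferase, had 56.8 CPM in neurons and 50.7 CPM in NPCs, at 112% (104 to 121). Fnta, a farnesyltransferase subunit gene, was at 109.5% of the NPC level (100.2 to 120), and the protease gene Rce1 at 92.5% (80.4 to 106).

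The sterol enzymes near the step that Lbr catalyses went the other way from Lbr. Of 8 measured genes, 7 were higher in neurons and 1 lower, 0 reached 2-fold, and the median log2 ratio was 0.18. Tm7sf2 encodes the other sterol C14 reductase, which performs the same reaction as Lbr. It had 19.1 CPM in neurons and 10.01 CPM in NPCs, at 191% of the NPC level (163 to 223). The neuron-to-NPC ratio of Lbr was 0.2499 times that of Tm7sf2 (Wald interval 0.211 to 0.297). Cyp51, the demethylase that acts just before this step, had 197 CPM in neurons and 164 CPM in NPCs, at 120% (115 to 125). Nsdhl and Ebp, of later steps, were at 115% (104 to 126) and 137% (110 to 171). Of the heterochromatin proteins, which include the HP1 partners of Lbr, 5 of 6 had lower values in neurons, where 50.7% of all genes tested did, and 0 reached 2-fold. For 2 of these 5 the interval included equal levels, Cbx3 at 97.1% (93.4 to 100.9) and Suv39h2, named after its value was seen, at 99.4% (89.0 to 111). Cbx5, an HP1 gene, had 602 CPM in neurons and 721 CPM in NPCs, and Cbx1, another HP1 gene, 87.6 CPM in neurons and 108 CPM in NPCs. The H3K9 methyltransferase gene Suv39h1 was at 78.2% of its NPC level (71.9 to 85.0). HP1 genes have processed pseudogenes, so their values are uncertain where reads map to several places.

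Among cytoskeletal partners of the LINC complex, a dynein regulator and a dynein subunit stood farthest apart, in opposite directions. Of 14 listed genes 13 were found, of which 1 was at least 2-fold higher and 1 at least 2-fold lower in neurons. Among all genes tested, 3.85% were at least 2-fold higher and 6.73% at least 2-fold lower, so counts of 1 do not set this list apart. The list's median log2 ratio was −0.052. Nde1, a dynein regulator needed in dividing progenitors, had 28.0 CPM in neurons and 85.3 CPM in NPCs, 3.05-fold lower in neurons (2.79 to 3.34). Its close relative Ndel1, chosen for this pairing after its value was seen, had 63.3 CPM in neurons and 52.01 CPM in NPCs. The neuron-to-NPC ratio of Nde1 was 0.269 times that of Ndel1 (Wald interval 0.240 to 0.302). Dync1i1, the neuronal dynein intermediate chain gene, had 81.2 CPM in neurons and 29.8 CPM in NPCs, 2.73-fold higher in neurons (2.51 to 2.97). Klc2, a kinesin light chain gene, was at 138% of its NPC level (129 to 147). Fhod1, a formin that binds nesprin-2, had 6.63 CPM in neurons and 10.3 CPM in NPCs, at 64.5% (52.6 to 79.0).

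**Figure D4:**
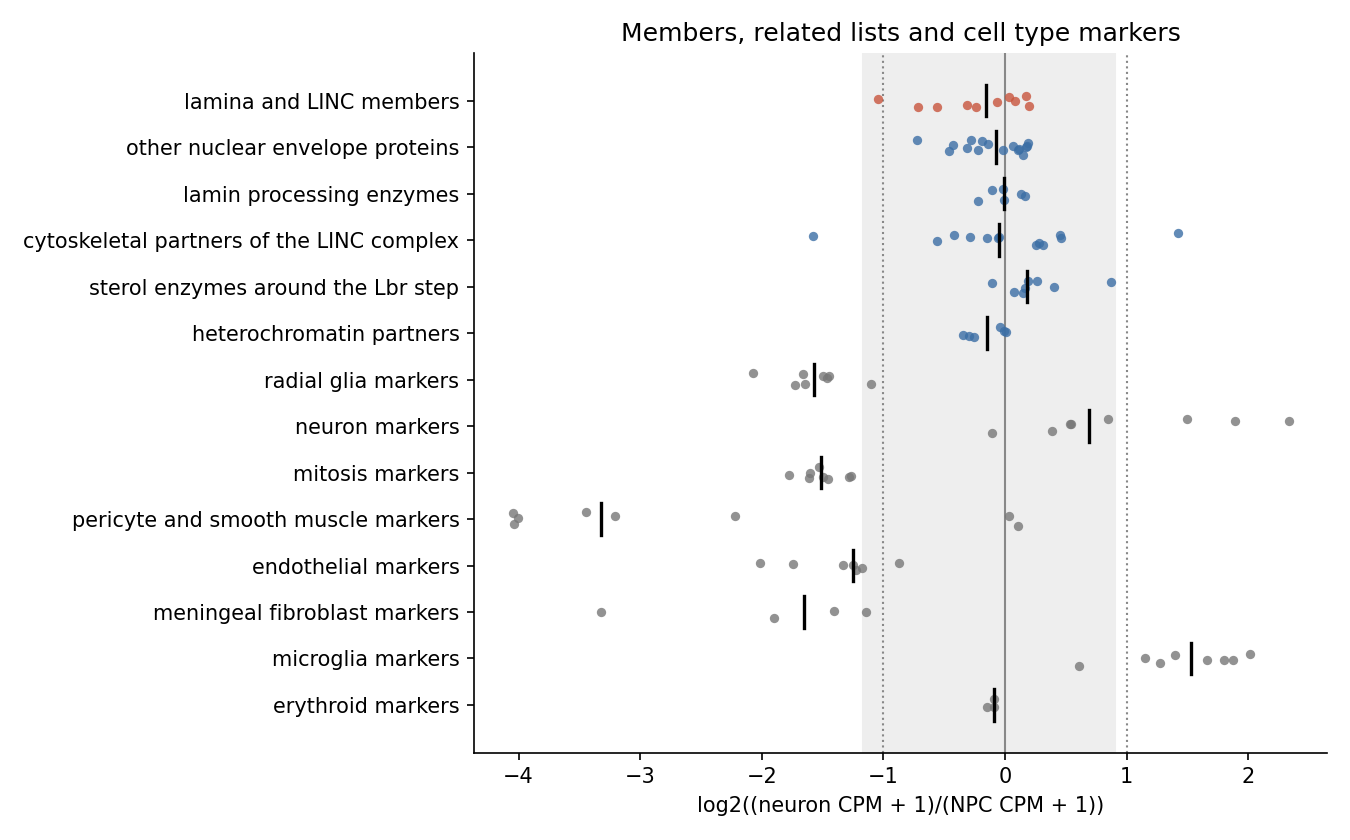
Log2((neuron CPM + 1)/(NPC CPM + 1)) of every gene above the 1 CPM minimum (points) and the median (black bars) for the lamina and LINC members, related lists and cell type markers. Grey shading spans the 5th to 95th percentile of all genes tested (−1.17 to 0.90), dotted lines mark 2-fold, and the members lie inside the shading, between −1.05 and 0.20.

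The labels were checked against defining markers. The gene behind the green reporter, Nes, had 189.5 CPM in neurons and 408.5 CPM in NPCs, and Dcx, behind the red one, 3294 CPM in neurons and 2522 CPM in NPCs. Neuron genes were thus abundant in the NPC library too, where Dcx ranked 5 and Tubb3 46 among all listed genes. In the neuron library Mki67 still had 241 CPM. The ratios therefore compare 2 sorted libraries and not pure cell types, and how far each library was mixed was not tested. Of 8 neuron markers, 7 were higher in neurons and 3 of them at least 2-fold, Nefl, Nefm and Stmn2. The remaining marker, Rbfox3, was lower in neurons, at 92.7% of the NPC level (87.7 to 97.97), an interval that excludes equal levels. Markers of other cells were present in both libraries. Of 8 microglia markers, 7 reached 2-fold in the direction of neurons, and the list summed to 109.6 CPM in neurons and 26.3 CPM in NPCs. The erythroid markers summed to 84.5 CPM in neurons and 90.9 CPM in NPCs. The part of these cells in the levels of the lamina and LINC genes was not tested.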

How the data were processed

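RNA was taken from sorted cortical cells with TRIzol and made into libraries with an Illumina TruSeq kit, per the labels' protocols. CASAVA 1.9, TopHat 1.2.0, SAMtools 0.1.18, edgeR and the build mm9 are named in the submitters' processing notes, with no role or order. In the sources used here, the annotation, strand use and treatment of multiply aligned reads are not given. The authors' deposited values are a signal per gene, whole multiples of 1 step per library (1.12797 in neurons, 0.952727 in NPCs). Values over their step lay within 0.05 of a whole read for 99.9656% of neuron and 100% of NPC values, with values under 0.01 taken as 0.

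Both libraries were divided by the mean of their sums (25698104) to give CPM. No count test could be run on the recovered reads, since each group has 1 library. Intervals were computed with scipy 1.17.1. They were tried on simulated counts drawn with counting error only, so the trial checks the calculation and no other source of error. Transcript lengths and exon overlaps came from GENCODE M21 on GRCm38, and no coordinates of the authors' build are printed. The 5 related lists and 8 marker lists held 53 and 62 genes. Of the genes in all lists, 4 matched through RefSeq synonyms and 2 (Syne3, Pafah1b1) did not match. Genes named are all members, up to 4 per related list and 3 per marker list by size of log2 ratio, with Nes, Dcx and Mki67. Others, such as Aldh1a2, Foxc2, Acta2, Tagln, Sun3, Sun5, Ndel1, Rbfox3, Plk1, Cdk1 and Narf, were chosen after their values were seen. Not every gene this rule names is printed. The members and lists were chosen with earlier results of these data known. Alternatives were TMM factors (edgeR 4.0.16 in R 4.3.3), total reads or upper quartiles for scaling, 0.5 or 5 CPM added, no filter, a minimum of 10 CPM, and shares per kilobase.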

Additional observations from a re-analysis of the deposited data

How the results depend on the processing

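No paired analysis was possible because each group has 1 library. With 5 CPM added in place of 1, the number of members at least 2-fold lower in neurons was 0 in place of 1, and the counts over all genes were 238 higher and 399 lower in neurons, in place of 489 and 854. With a minimum of 10 CPM, 548 genes were lower, and 8 members remained, without Lmna and Syne1. Of the members' log2 ratios, that of Syne1 changed sign (with scaling by total reads or by upper quartiles), and the other 9 kept their sign under every alternative that kept them. Lbr ran from −1.11 to −0.98. Scaling moved the median of all genes by at most 0.0642 on the log2 scale. Per kilobase of coding length, Lmnb1 took 86.5% of the lamin level in NPCs, Sun1 took 38.4% of the SUN level in neurons and 40.2% in NPCs, and Syne1 took 0.547% of the nesprin level in neurons and 0.363% in NPCs. Shares per kilobase of transcript, chosen after seeing the data, were 84.6% in neurons and 88.3% in NPCs for Lmnb1, 14.3% and 10.7% for Lmnb2, 41.7% and 43.6% for Sun1, and 0.544% and 0.361% for Syne1. Lmna and Syne1, with 110 to 160 reads a library, have the widest intervals.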
